A study of Mus musculus with 4 samples.

Results

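The genes examined here encode the enzymes that add and remove cytosine methylation: the dioxygenases Tet1, Tet2 and Tet3, the methyltransferases Dnmt1, Dnmt3a and Dnmt3b, and the glycosylase Tdg. Members were all listed ATAC-seq peaks from 50 kb upstream of the start to 50 kb past the end of each of the 7 genes in mm9 (GENCODE M1), windows that add up to 1.17 Mb. They held 28 of the 25775 peaks of the WT list and 0 of the 3836 peaks of the Tet2 KO list. ATAC-seq marks open chromatin through the transposase Tn5, which inserts sequencing adapters into accessible DNA, and a peak is a stretch where fragments pile up above the background.

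The study asked how the loss of Tet2 changes chromatin accessibility in muscle precursors. It profiled 2 WT and 2 Tet2 KO samples of primary myoblasts, all from C57BL/6 mice. Satellite cells, the stem cells of muscle, were sorted from hindlimb muscle without CD45+, CD11b+, CD31+ or Sca1+ cells, grown for 3 days on collagen until they were MyoD+ myoblasts, and 5000 cells went into each library. Tet2 KO mice lack exon 3 of Tet2 in all cells, not only in muscle, and the labels give no age or sex. The paper's default for its experiments was male mice in a stated range of ages in weeks. Both groups are otherwise described alike. The analysed files are 1 peak list per genotype, which could not be tied to a replicate, so there is no replicate of any value below and no difference between WT and Tet2 KO was tested.

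DNMT1 copies methylation to the new strand after replication, while DNMT3A and DNMT3B set it at unmethylated CpG sites. TET enzymes oxidise 5-methylcytosine step by step, and TDG excises the later oxidation products, which base excision repair replaces with cytosine. In muscle precursors this turnover is studied at enhancers, where methylation of CpG sites beside E boxes can limit binding of MyoD.

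The following stretches show the sequence under peaks at the starts of these genes and inside their introns. Each is read 5′ to 3′ on the strand of its gene from the mm9 sequence, and is the 200 bp around a peak summit without annotated exon bases. Capitals mark the E box CAGCTG, the AP-1 site TGACTCA, the ETS site CCGGAAG, the GC box GGGCGG, the NRF1 half-site GCGCATG and a part of the CTCF motif, AGGGGGC, on either strand. The first 3 come from peaks at a transcript start. The Tet2 promoter peak lies within exon 1 and its sequence is not shown.
Tdg promoter (chr10:82092436-82092572, plus strand): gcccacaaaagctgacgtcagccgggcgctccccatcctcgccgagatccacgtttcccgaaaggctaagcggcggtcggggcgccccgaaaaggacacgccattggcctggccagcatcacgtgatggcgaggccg
Dnmt1 promoter (chr9:20757318-20757461, minus strand): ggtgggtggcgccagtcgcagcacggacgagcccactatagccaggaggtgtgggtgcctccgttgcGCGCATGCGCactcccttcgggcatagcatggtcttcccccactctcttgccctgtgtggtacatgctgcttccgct
Tet1 internal start (chr10:62328053-62328229, minus strand): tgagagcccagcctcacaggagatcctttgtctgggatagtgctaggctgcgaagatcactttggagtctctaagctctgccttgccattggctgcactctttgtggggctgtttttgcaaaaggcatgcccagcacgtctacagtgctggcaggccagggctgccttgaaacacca

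The next 5 come from intron peaks, 1 from each gene that has any. Dnmt1 and Tet3 hold both E boxes and an AP-1 site, Dnmt3a and Tet1 hold an AP-1 site, and Tet2 holds none of the 6 motifs.
Dnmt1 intron 1 (chr9:20747877-20748076, minus strand): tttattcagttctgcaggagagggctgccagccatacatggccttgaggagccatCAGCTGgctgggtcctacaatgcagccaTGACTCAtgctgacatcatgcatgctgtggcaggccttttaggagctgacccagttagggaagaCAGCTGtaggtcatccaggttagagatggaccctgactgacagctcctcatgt
Tet3 intron 2 (chr6:83355701-83355900, minus strand): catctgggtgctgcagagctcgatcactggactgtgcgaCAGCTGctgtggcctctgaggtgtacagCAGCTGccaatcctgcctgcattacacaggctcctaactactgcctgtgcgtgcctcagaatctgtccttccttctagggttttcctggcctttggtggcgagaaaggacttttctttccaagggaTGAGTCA
Dnmt3a intron 1 (chr12:3823602-3823801, plus strand): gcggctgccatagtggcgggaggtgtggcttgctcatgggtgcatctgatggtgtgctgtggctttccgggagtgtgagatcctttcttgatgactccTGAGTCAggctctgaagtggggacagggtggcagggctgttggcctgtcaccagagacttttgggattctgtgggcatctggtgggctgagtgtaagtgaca
Tet1 intron 3 (chr10:62313947-62314146, minus strand): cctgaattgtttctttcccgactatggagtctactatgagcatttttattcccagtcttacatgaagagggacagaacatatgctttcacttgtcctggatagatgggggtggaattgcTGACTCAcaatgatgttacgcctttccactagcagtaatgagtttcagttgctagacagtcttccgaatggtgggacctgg
Tet2 intron 2 (chr3:133159967-133160166, minus strand): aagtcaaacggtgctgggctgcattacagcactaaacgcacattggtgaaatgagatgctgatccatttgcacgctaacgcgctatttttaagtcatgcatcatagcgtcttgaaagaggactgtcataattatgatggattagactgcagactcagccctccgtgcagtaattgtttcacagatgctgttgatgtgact

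WT peaks were listed around 6 of the 7 genes, and Dnmt3b had none. The windows held 7 WT peaks at Dnmt1, 5 each at Tet3 and Tdg, 4 each at Tet2 and Dnmt3a, and 3 at Tet1. Among all 22380 protein-coding genes, 74.3% had a WT peak in a window built the same way and the median window held 2. The members' fold enrichment, the summit fragments divided by those of the background around them, with 1 added to both, had a median of 7.85 and ran from 3.97 to 12.7. The median over all WT peaks was 7.89, so these peaks sat in the middle of the list. Their summits held 7 to 30 fragments, with a median of 16, equal to the median of the whole list. Of the 28 peaks, 14 lay in a member gene or at its start, and the other 14 lay in intergenic DNA or at neighbouring genes.

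**Figure D1:**
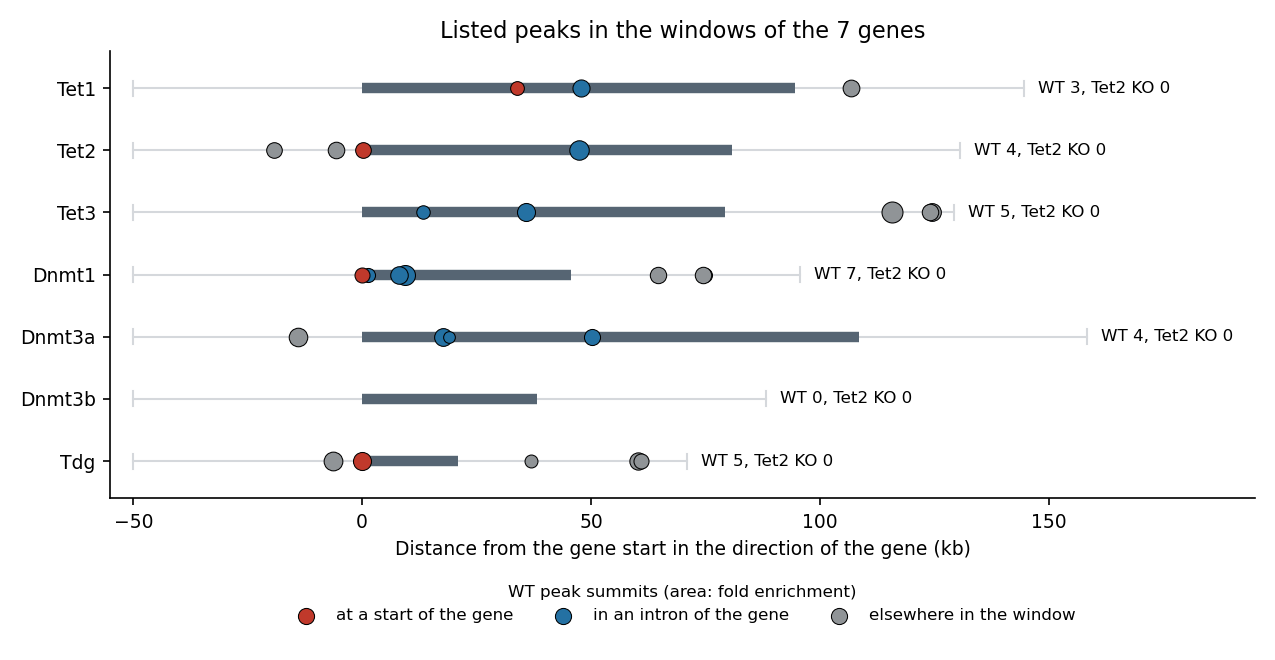
Positions of the 28 WT peak summits in the 50 kb windows, drawn as distance in kb from each gene start in the direction of the gene. Dark bars are gene bodies, thin lines the windows, and circle area is fold enrichment. Dnmt3b has no circle, and no Tet2 KO peak was listed in any window.

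Tet2, the enzyme deleted in the KO mice, lies on chromosome 3 from 133126643 to 133207354 on the minus strand. Its promoter peak (133207227 to 133207351) was inside exon 1, with the summit 91 bp past the start, 12 fragments (exact Poisson 95% interval 6.2 to 21) and a fold enrichment of 7.10. Intervals on fragments cover counting error only. The 1000 bp upstream to 100 bp downstream of this start had a GC content of 67.0% and 117 CpG sites, the highest CpG content of the 7 starts, with an observed over expected CpG ratio of 0.951. A stronger peak lay in intron 2 (133159981 to 133160196), with 17 fragments and a fold enrichment of 10.9, which put it in the strongest of 5 equal classes of the WT list by fold enrichment. Both remaining Tet2 peaks were intergenic, 5608 bp and 19351 bp upstream of the start, with fold enrichments of 7.88 and 7.02. The deleted exon 3 (133148476 to 133151681, 3206 bp) had 0 WT and 0 Tet2 KO peaks, and its nearest WT peak was the intron peak 8300 bp away. The peak lists therefore could not check the deletion.

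Tet1 and Tet3 had no listed WT peak at the start of their full-length transcripts. In or beside their windows 4 and 8 WT peak numbers were skipped, so a called peak that was not listed could lie there. Tet1 (chromosome 10, 62267318 to 62361866, minus strand) had its only promoter peak (62328055 to 62328195) at the internal start of a noncoding transcript, with 8 fragments (3.45 to 15.8) and a fold enrichment of 5.46. An intron 3 peak of Tet1 (62313819 to 62314121) had 16 fragments and a fold enrichment of 8.42, and the third peak of the window was at the promoter of Ccar1. Tet3 (chromosome 6, 83312367 to 83391672, minus strand) had a pair of peaks in intron 2. The stronger (83355702 to 83355904) had 15 fragments and a fold enrichment of 9.36, and the weaker (83378207 to 83378316) had 8 fragments and a fold enrichment of 5.23. The highest fold enrichment of all 28 peaks, 12.7 with 24 fragments, was in the Tet3 window but at the promoter of Mob1a, an adaptor of the Hippo pathway. Peaks at the promoter and in an intron of Mthfd2, a mitochondrial folate enzyme, had fold enrichments of 7.81 and 9.06.

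Dnmt1, the maintenance methyltransferase (chromosome 9, 20711650 to 20757317, minus strand), had the most peaks. Of its peaks, 4 lay between 45 bp upstream of the start and 9340 bp into the gene. The promoter peak (20757269 to 20757426) had 14 fragments (7.65 to 23.5) and a fold enrichment of 6.49. In intron 1 a peak 9340 bp from the start (20747841 to 20748068) had 30 fragments (20.2 to 42.8) and a fold enrichment of 11.5, the most fragments of all 28 peaks. Its neighbours in intron 1, 8016 bp and 1179 bp from the start, had fold enrichments of 8.86 and 5.70. The other 3 peaks of the window were in Angptl6 (5.60 and 7.76) and at the promoter of Ppan (7.69).

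The de novo methyltransferases had no listed promoter peak. Dnmt3a (chromosome 12, 3806007 to 3914443, plus strand) has 18 annotated starts, and no listed WT peak touched any of them. Its peaks were 14051 bp upstream (fold enrichment 9.90, 18 fragments), in intron 1 (9.09 with 22 fragments, and 3.97 with 9 fragments, the lowest fold of all 28) and in intron 3 (7.44, 17 fragments). The upstream peak was nearest to a start of Dtnb. Inside the Dnmt3a window 2 WT peak numbers were skipped, so a called peak that was not listed could lie at a start. Dnmt3b (chromosome 2, 153475186 to 153513466, plus strand) had no peak in its window in either list. No WT peak number was skipped in or beside that window, so the numbering of the WT peaks runs on without a break across it.

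Tdg, the glycosylase (chromosome 10, 82092573 to 82113544, plus strand), had the strongest promoter peak of the 7 genes. It spanned 82092438 to 82092620 with its summit 37 bp upstream of the start, 17 fragments (9.90 to 27.2) and a fold enrichment of 9.38. No peak lay inside the Tdg gene beyond this promoter. The other 4 peaks of the window were at the promoter of 1190007I07Rik (10.1) and in and at the promoter of Glt8d2 (4.82, 8.59 and 6.50). Ordered by fold enrichment, the promoter peaks ran from Tdg through Tet2 and Dnmt1 to Tet1, but the intervals of the fragments of all 4 overlapped. Against the genome-wide background instead of the local one, Dnmt1 (21.6 times) stood above Tet2 (18.5 times).

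**Figure D2:**
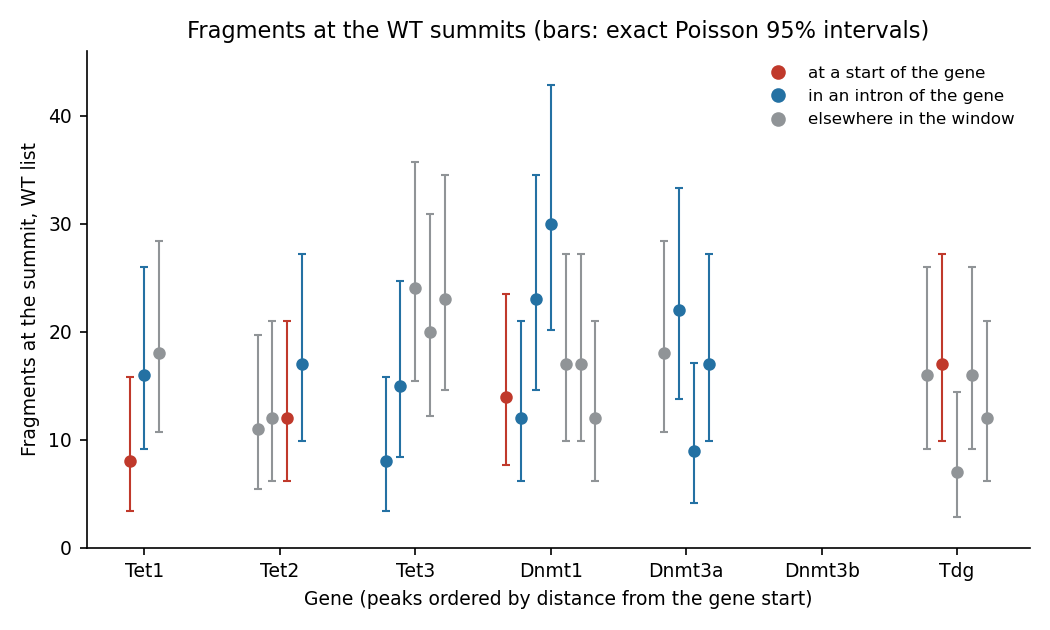
Fragments at the summit of each of the 28 WT peaks, by gene and in order of distance from the gene start, with exact Poisson 95% intervals as bars. The Dnmt1 intron peak with 30 fragments is the highest, most intervals overlap, and Dnmt3b has no point.

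Counted over the 7 genes, 4 had a WT promoter peak (57.1%) and 0 had a Tet2 KO promoter peak. Over all protein-coding genes the shares were 30.9% and 8.07%, and of the genes with a WT promoter peak 25.9% also had one in the Tet2 KO list. These 4 genes are too few to set a count of 0 apart from that share.

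By position 10 of the 28 peaks were at a promoter of any gene (35.7%, against 27.3% of all WT peaks), 2 in exons (7.14%, against 3.35%), 13 in introns (46.4%, against 36.3%) and 3 intergenic (10.7%, against 33.0%). The windows were built around genes. Of the 10 peaks in introns of the member genes, 5 held CAGCTG, the E box bound by MyoD and its partners, and 5 held TGACTCA, the site of Fos and Jun. Together 8 of these 10 held at least 1 of the pair (80%), against 67.6% of all WT intron peaks. The other window intron peaks lie in neighbouring genes. There the Glt8d2 peak of fold enrichment 4.82 held CAGCTG, while its peak of 8.59 and the Mthfd2 intron peak held neither. Over all 28 peaks 12 held at least 1 of the pair (42.9%, against 53.8% of all WT peaks). Of the 4 promoter peaks none held either, against 20.3% of WT promoter peaks that held at least 1. The Dnmt1 intron 1 peak with 30 fragments had 2 E boxes and an AP-1 site, as did the stronger Tet3 intron 2 peak.

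The 6 motifs were counted in the 200 bp around each summit. CAGCTG was in 28.6% of the 28 peaks (33.2% of all WT peaks), TGACTCA in 21.4% (29.6%), GGGCGG, bound by Sp and KLF factors, in 14.3% (22.3%), CCGGAAG in 3.57% (5.69%) and AGGGGGC in 3.57% (5.73%). The half-site GCGCATG of NRF1 was in 3 of the 28 peaks (10.7%, against 1.65%), the Dnmt1 promoter and both Angptl6 exon peaks, which neighbour each other. In the Dnmt1 promoter it occurred on both strands within 1 overlapping match, and that peak also held GGGCGG and AGGGGGC in bases of exon 1 that are not shown. A match describes the letters of a window and does not show binding.

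CpG sites, the substrate of these enzymes, were at the starts more than in the introns. The 200 bp around the promoter summits held 24 CpG sites at Tdg, 19 at Dnmt1 and 15 at Tet2, but 2 at the internal start of Tet1. The 10 peaks in introns of the member genes held 0 to 9, and the Dnmt1 intron 1 peak with 30 fragments and 2 E boxes held 0. Over the wider promoter stretch, taken at the first start of each gene, observed over expected CpG was 0.626 at Tdg and 0.413 at Dnmt1. The first starts without a listed peak had 0.589 at Dnmt3b, 0.469 at Tet3, 0.272 at Tet1 and 0.132 at Dnmt3a. The first starts with and without a listed WT peak thus overlapped in CpG content. At Dnmt3a the first start is that of a retained-intron transcript, so this stretch leaves out the protein-coding starts from 3806527 on.

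None of the 28 WT peaks overlapped a Tet2 KO peak (0%, Wilson 95% interval 0 to 12.1%), against 14.1% of all WT peaks. By position the share over all WT peaks was 22.5% at promoters, 10.1% in exons, 10.6% in introns and 11.3% in intergenic DNA. It rose with strength from 1.75% in the weakest of the 5 classes of fold enrichment through 3.34%, 7.33% and 16.1% to 41.9% in the strongest. The 28 peaks fell into these classes, in the same order, as 6, 4, 7, 8 and 3. Weighted to those classes, the share over all WT peaks was 11.8%, which is 3.30 of 28 peaks. The interval covers counting error only and treats the 28 peaks as independent, although they cluster in the windows of 6 genes. It was not used to test the 28 peaks against either share.

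**Figure D3:**
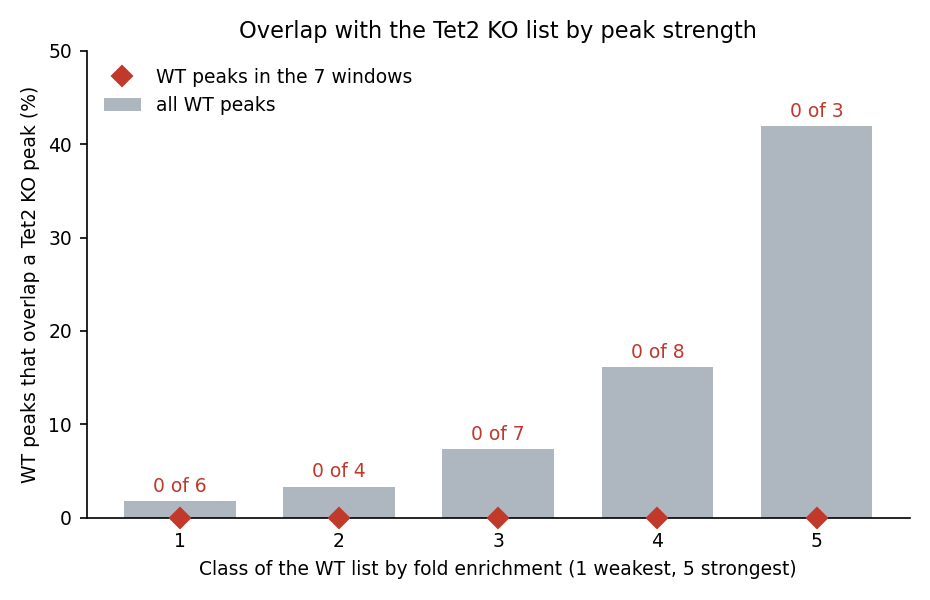
Percent of the whole WT list with an overlapping Tet2 KO peak (grey bars), in 5 equal classes of fold enrichment from the weakest (1) to the strongest (5). Red diamonds at 0 and the labels give the 28 window peaks, none of which overlapped. The grey share rises from 1.75% to 41.9%, and 3 of the 28 peaks are in class 5.

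From the 28 WT peaks to the nearest Tet2 KO peak the distance ran from 78519 to 429009 bp, with a median of 206617 bp. Around Tet2 the neighbouring Tet2 KO peaks were 310603 and 1893698 bp from the gene, and around Tdg 1057985 and 208150 bp. The closest were just past the windows, at the promoter of Mapre1 near Dnmt3b (53419 bp from the gene, fold enrichment 4.75) and at the promoter of Dguok near Tet3 (65164 bp, 4.96), and both overlapped a WT peak. Over all protein-coding genes, 31.4% had a Tet2 KO peak in their window. Of the genes with 3 to 7 WT peaks in the window, the range of these 6 genes, 46.7% had no Tet2 KO peak there.

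The background of the Tet2 KO list was the higher of the pair. It came to 1.38 fragments per position genome-wide, 2.13 times the 0.649 of the WT list. Total reads are unknown, so whether the Tet2 KO list had more reads was not tested. The summits of the Tet2 KO list had a median of 15 fragments, with a 10th percentile of 11 and a smallest value of 7. Peaks present in both lists had a lower fold enrichment in Tet2 KO, with medians of 5.62 against 11, a median ratio of 0.528 and a lower value at 98.3% of 3712 peaks. The part of this library-wide difference in the gaps at the 7 genes was not tested. Both lists also skip peak numbers, 4403 in Tet2 KO and 9707 in WT. Between the Tet2 KO peaks that flank each window 1 to 4 numbers were skipped, 16 in all, so a called peak that was not listed could lie there. If each skipped number lay on a different single WT peak, 16 of the 28 WT peaks would have no called Tet2 KO peak, none of them at Tet2, and fewer if 1 unlisted peak covered neighbouring WT peaks. When the WT list was shortened to the length of the Tet2 KO list by -log10 q, 2 of the 28 peaks were left, those of the Dnmt1 intron with 30 fragments and of the Mob1a promoter.

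To set the 7 enzymes beside their pathway, 60 related genes were counted. Of these, 37 had a WT promoter peak (61.7%) and 14 a Tet2 KO promoter peak (23.3%), and every gene of the 14 also had a WT one. As a share of the genes with a WT promoter peak, 37.8% also had a Tet2 KO one, against 25.9% of all such protein-coding genes. The shares of 61.7% and 23.3% were read against the 30.9% and 8.07% of all protein-coding genes.

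Of 15 genes of methylation maintenance and readers, 9 had a WT and 3 a Tet2 KO promoter peak. Among them were the methyl-CpG binding domain genes Mbd3 (fold enrichment 14.9 in WT and 7.73 in Tet2 KO) and Mbd2 (6.84 and 4.98). Hells, Usp7, Dnmt3l, Zfp57, Zbtb33 and Zbtb4 had no promoter peak in either list.

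Of 18 genes of base excision repair and removal, 12 had a WT and 3 a Tet2 KO promoter peak. Mbd4, a glycosylase for G:T mismatches like TDG, had 12.1 in WT and 6.57 in Tet2 KO. The repair scaffold Xrcc1 had 15.6 and 6.37, and the stress-response gene Gadd45a had 10.5 and 5.93. Smug1, Neil2, Lig3, Polb and Gadd45g were among those with no promoter peak in either list.

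Of 13 TET cofactors and partners, 7 had a WT and 4 a Tet2 KO promoter peak. Among them were genes of enzymes that act on metabolites known to inhibit TET enzymes. Fh1, the fumarate hydratase, had 15.2 in WT and 5.87 in Tet2 KO, and Sdhb, a subunit of succinate dehydrogenase, had 9.50 and 5.13. D2hgdh, which oxidises D-2-hydroxyglutarate, had 9.50 and 5.84. Hcfc1, Sdha, Cxxc4, Cxxc5, Wt1 and Dppa3 had none in either list.

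Of 14 genes listed under methyl donor supply, not all of which need act in it, 9 had a WT and 4 a Tet2 KO promoter peak. Mtr, the methionine synthase, had 14.4 and 7.98. Mat2a and Mat2b, the subunits of the enzyme that makes S-adenosylmethionine, had 8.73 and 7.76 in WT and 6.12 and 4.2 in Tet2 KO, and Ahcyl1 had 12.7 and 6.76. Mat1a, Mtrr, Shmt2, Bhmt and Gnmt had none in either list. At each of the 14 related genes with a peak in both lists the fold enrichment was lower in Tet2 KO, as at 98.3% of all such peaks.

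**Figure D4:**
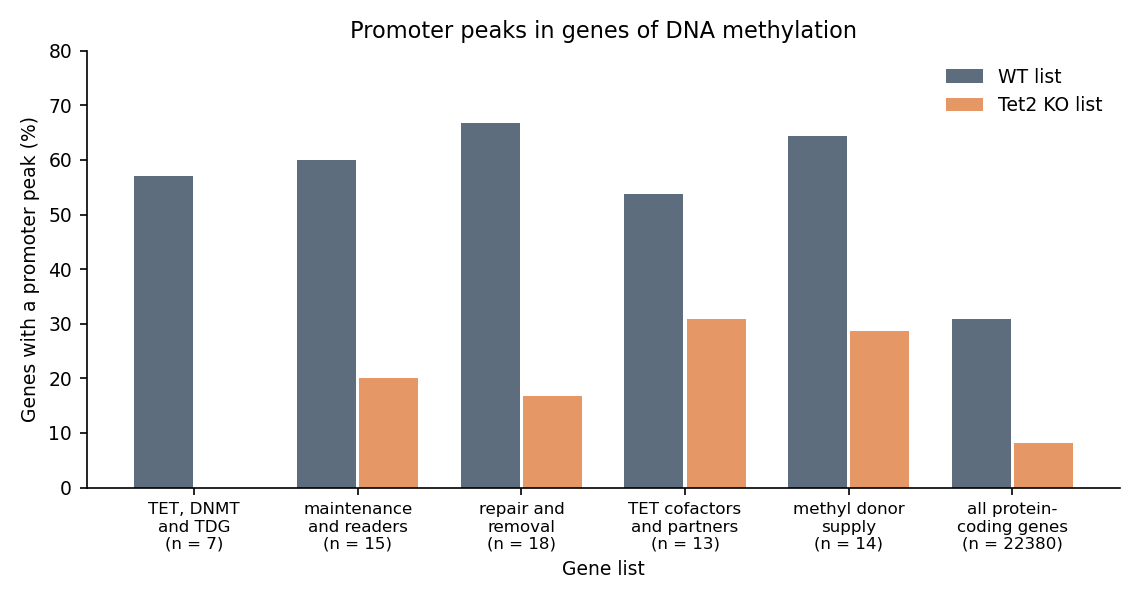
Percent of genes with a promoter peak in the WT list (dark bars) and the Tet2 KO list (orange bars), for the 7 enzymes, the 4 lists of related genes and all protein-coding genes, with the number of genes under each. The 7 enzymes have 57.1% and 0%, and all protein-coding genes 30.9% and 8.07%.

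The related genes most like Tet2, with no Tet2 KO promoter peak and the closest WT fold enrichment among 23 genes, included Apex1 (7.33) and Uhrf2 (6.82), against 7.10 at Tet2. They were chosen for this likeness, which is over 1 value per list.

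The labelled cell type was checked on promoter peaks. Of 8 myoblast markers 3 (37.5%) had a promoter peak in both lists. Over all protein-coding genes the shares were 30.9% in WT and 8.07% in Tet2 KO, so so few markers do not settle the cell type. The 3 included Myod1 (7.53 in WT and 5.50 in Tet2 KO) and Des (7.39 and 4.60), while Myf5, Pax7, Cdh15, Itga7 and Vcam1 had none. Of 6 markers of cells that the sort removes or that muscle also holds, Pecam1, the gene of CD31, had a WT promoter peak (11.5), and Ptprc, Itgam, Ly6a, Pdgfra and Cd68 had none in either list. Whether other cells contributed to the peaks at the 7 enzymes was not tested.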

How the data were processed

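ATAC-seq reads of 2 WT and 2 Tet2 KO samples were trimmed, aligned to mm9 with Bowtie2, filtered on mapping quality, stripped of duplicates with Picard and passed to MACS2 by the authors; versions are not given in the sources used here. The authors deposited, for each peak of 1 list per genotype, a fold enrichment, which is a ratio of the summit to the local background with a pseudocount of 1. The authors also deposited the -log10 p-value and -log10 q-value of the summit. No column of per-sample values was left unused (0). Total reads are unknown. Fragments at each summit were solved with the Poisson tail that MACS2 uses, from its fold and p, to within 0.001 in -log10 p, and this step was tested on simulated data.

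Peaks were overlapped at 1 bp or more. A promoter was 1000 bp upstream to 100 bp downstream of any transcript start of GENCODE M1 touched by a peak. Features were assigned at the peak centre in the order promoter, exon, intron and intergenic. Motifs were counted in the 200 bp around the summit. The WT list was ranked by fold enrichment and divided into 5 equal classes. Peaks are not replicates, so no test between genotypes was made, and Wilson and exact Poisson 95% intervals cover counting error only. The genes, lists and motifs were chosen with earlier results of these data known. Named were the 7 genes, genes whose promoters carry peaks in their windows, related genes with a Tet2 KO promoter peak or with none in either list (up to 12 of each kind per list), and the 3 related genes most like Tet2; the genes nearest to the other window peaks are named outside this rule, as are the genes of the nearest Tet2 KO peaks. Some genes of these lists count in the totals but are not reported here by name. Alternatives were other windows, limits on -log10 q and fold, merged peaks, equal list lengths, other overlap and promoter rules and the genome-wide background. Calculations ran in Python 3.11.15 with scipy 1.17.1, pandas 2.3.3 and numpy 2.4.6, and plots in matplotlib 3.10.9.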

Additional observations from a re-analysis of the deposited data

How the results depend on the processing

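The count of 28 WT peaks moved to 16 with 10 kb on either side of the genes, to 16 from 10 kb upstream to the gene end, to 17 at a -log10 q of at least 10, and to 2 when the WT list was shortened to as many peaks as the Tet2 KO list by -log10 q. The 4 genes with a WT promoter peak became 1 and 0 under the last 2 of these settings. At protein-coding transcripts only, 3 genes had one, since the Tet1 start is noncoding. The count of 0 Tet2 KO peaks became 2 with 100 kb on either side, where 4.76% of the WT peaks had a Tet2 KO peak. It was 0 under all other settings, but these narrow the windows or drop or join peaks, and could not have given another count. The stricter overlap rules could not have raised the share of WT peaks with a Tet2 KO peak either. The related genes with a promoter peak fell to 24 in WT and 2 in Tet2 KO at a -log10 q of at least 10. Against the genome-wide background the Dnmt1 promoter summit moved from 10.7 to 21.6 times the background. Total reads are unknown, and the 28 summits rest on 7 to 30 fragments each. No paired analysis was possible because the lists, 1 for WT and 1 for Tet2 KO, carry no replicate number.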
